A study of Mus musculus with 3 samples.

Results

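The genes described here are 10 genes known from pericytes and vascular smooth muscle, the mural cells that wrap blood vessels: Rgs5, Cspg4, Mcam, Abcc9, Kcnj8, Higd1b, Des, Myocd, Lmod1 and Smtn. They were chosen by name, and all 10 were found among the 20662 named genes of the array that remain after receptor genes of smell and taste are set aside. A gene was read from the probe set that carries its symbol alone, and where more than 1 did, from the brightest by mean. RNA came from 3 samples of mouse tumour stroma of genotype Dicer1 +/-. Dicer1 encodes the enzyme that cuts microRNA precursors. Tumours were digested, and live cells without PECAM1, a surface protein of endothelium, and without the red fluorescent protein tdTomato were sorted. Each sample was measured on 1 Affymetrix array. The series title also names ASD+/+ tumours. Stroma of those was not analysed here, so no contrast of genotypes was possible and every value below describes 1 group. The labels do not name the promoter that drives tdTomato, the kind of tumour or the meaning of ASD. Nor do they give separate animals for the samples. The log2 intensity of Xist, the RNA of the inactive X chromosome, reached 9.78 in sample 1, against 3.43 and 3.49 in the other samples, so sample 1 held cells of another animal than samples 2 and 3, while the spread between those may be technical.

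Pericytes sit under the endothelium of capillaries, and smooth muscle cells ring arterioles and larger vessels. Both kinds of cell set vessel diameter through calcium, potassium channels and an actin and myosin apparatus, and both are recruited to new vessels in tumours by platelet-derived growth factor. Smooth muscle genes are switched on by serum response factor together with its coactivator myocardin. No marker is exclusive to mural cells: melanocytes and glial progenitors also make Cspg4, endothelium makes Mcam, and skeletal muscle makes Des.

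The 3 arrays had medians of 5.35, 5.34 and 5.36 (log2 intensity, samples 1 to 3). A gene was called above background on an array when its level passed the 95th percentile of 1433 probe sets of smell and taste receptors, which stood at 5.16, 5.11 and 5.21. Of the 10 genes, 8 were above background on all 3 arrays, where 60.5% of all named genes were. Higd1b passed on 2 arrays and Myocd on 1. With the 90th percentile in its place all 10 passed on every array, and with the 99th 7 did, Lmod1 being the third that did not. Probe sets differ in brightness, so the level of a gene was compared only with itself across samples. Sums of linear intensity, given for some lists below, give brighter probe sets more weight. They also include genes below background. In sorted bulk RNA, fewer cells of a type and less RNA per cell cannot be told apart.

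Other mural markers were read beside the 10 genes, where 60.5% of all named genes were above background on every array. Passing that level does not show which cells made the RNA. All of the first 4 genes of the list of other pericyte genes were above background on every array, namely Pdgfrb, the growth factor receptor that pericytes need, Notch3, Vtn and Anpep, and so were 14 of the 15 genes of that list, all but Tbx18. All 13 measured genes of the contractile apparatus were above background on every array, among them Acta2, Myh11, Tagln and Cnn1. Markers of other cells were read in the same way. All 14 measured fibroblast markers and all 10 leukocyte markers were above background on every array, and so were 10 of 15 endothelial markers and 12 of 15 markers of skeletal muscle. The endothelial share, 66.7%, was near the 60.5% of all named genes.

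Rgs5 encodes a regulator that switches off G protein signals and is one of the standard markers of pericytes. Its level was 9.93, 10.64 and 9.47 in samples 1 to 3 (mean 10.01 ± 0.59 SD, n = 3). Sample 2 was the highest and sample 3 the lowest, 2.25-fold apart. The level of Cspg4, the NG2 proteoglycan of the pericyte surface, was 7.01, 7.86 and 7.52 (7.46 ± 0.43 SD, n = 3). Here too sample 2 was the highest, and the lowest was sample 1. Mcam, the adhesion molecule CD146, stood at 7.48, 8.30 and 7.26 (7.68 ± 0.54 SD, n = 3). Samples 1 and 3 lay 0.22 apart on the log2 scale and sample 2 lay above both.

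Abcc9 and Kcnj8 encode the SUR2 and Kir6.1 subunits of the ATP-sensitive potassium channel of vessel walls, and the genes neighbour each other in the mouse genome. The level of Abcc9 was 8.07, 8.78 and 7.59 in samples 1 to 3 (8.15 ± 0.60 SD, n = 3). That of Kcnj8 was 7.16, 7.80 and 6.97 (7.31 ± 0.44 SD, n = 3). Both subunits had the same order of samples, with sample 2 above sample 1 by 0.71 for Abcc9 and 0.64 for Kcnj8 on the log2 scale, and sample 2 above sample 3 by 1.19 and 0.83. Kcnj11, which encodes the related pore subunit Kir6.2, had a range over the samples of 0.13 (log2), and Abcc8, which encodes SUR1, was above background on no array and listed at 4.72 on all of them.

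Higd1b encodes a small mitochondrial protein of the hypoxia-inducible domain family and is a marker of pericytes. Its level was 5.41, 6.35 and 4.88 in samples 1 to 3 (5.55 ± 0.74 SD, n = 3). Sample 3 lay below the background level, so the 2.77-fold span between samples 2 and 3, the widest of the 10 genes, has a lower end that was not measured above background. Its relatives Higd1a and Higd2a were above background throughout and spanned 0.12 and 0.13 on the log2 scale.

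The cytoskeletal genes differed in their order of samples. Des encodes desmin, the intermediate filament of all muscle types and of pericytes, and its level was 7.61, 8.05 and 8.13 in samples 1 to 3 (7.93 ± 0.28 SD, n = 3). Des had the smallest range of the 10 genes, 0.51 on the log2 scale, and was the only one of them not highest in sample 2, although samples 2 and 3 lay just 0.08 apart. Lmod1, the leiomodin of smooth muscle that starts actin filaments, stood at 6.04, 6.46 and 5.59 (6.03 ± 0.44 SD, n = 3). Smtn encodes smoothelin, an actin-binding protein of contractile smooth muscle, and stood at 7.49, 8.20 and 7.76 (7.81 ± 0.36 SD, n = 3). Lmod1 followed the order of Rgs5, whereas Smtn, like Cspg4, was lowest in sample 1. A second, dimmer probe set with the symbol Smtn read 5.26, 5.47 and 5.39, with the same order of samples and a range of 0.21 (log2).

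Myocd encodes myocardin, the coactivator that turns on the smooth muscle programme. Its level was 5.03, 5.65 and 4.62 in samples 1 to 3 (5.10 ± 0.52 SD, n = 3). It passed the background level in sample 2 alone, so its range of 1.03 (log2) rests on values below background in the other samples. Because Higd1b and Myocd came nearest to background, the counts below are also given for the other 8 genes.

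**Figure D1:**
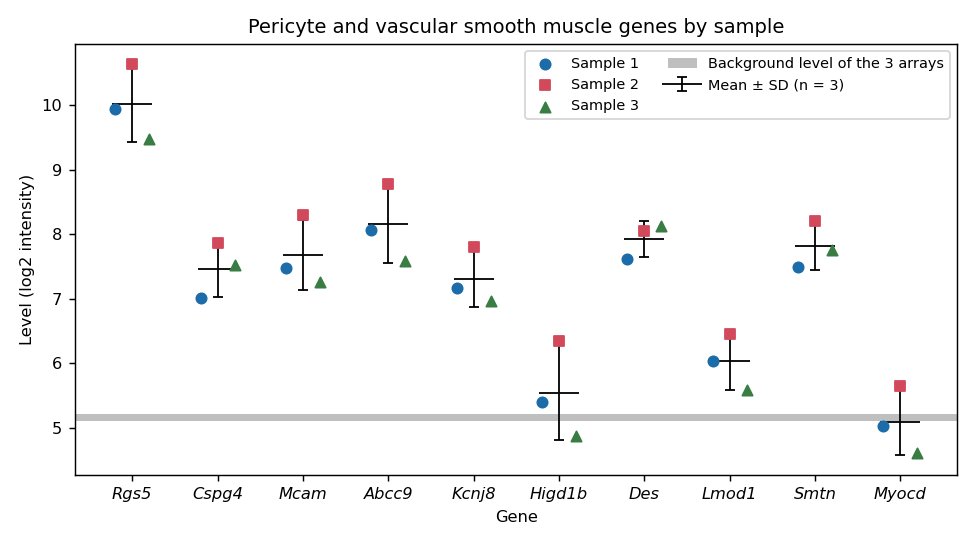
Levels of the 10 genes (log2 intensity) in samples 1, 2 and 3 of Dicer1 +/- stroma, with the mean and SD of the 3 samples as a bar and whiskers and the background levels of the arrays, 5.11 to 5.21, as a grey band. Sample 2 is the highest point for every gene but Des, and only Higd1b and Myocd have points in or below the band.

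Promoter windows were held for 8 of the 10 genes, all but Higd1b and Myocd. They are RefSeq windows of 300 bases on build GRCm38.p6, 250 before the start of the gene and 50 after it. They were searched on both strands for the CArG box, the letters that serum response factor binds, and for TGGGAA, which reads TTCCCA on the other strand and is the core that the Notch partner RBPJ binds. No CArG box lay in any of the 8 windows, so no overlap of the motifs arose, and 1.63% of the 32851 windows of all genes held one. TGGGAA lay in 3 of the 8, those of Abcc9, Kcnj8 and Smtn, against 25.6% of all windows. The first 270 bases are printed 5′ to 3′ for these 3 genes because they hold the match, for Rgs5 as a gene of the same sample order as Abcc9 and Kcnj8 without one, and for Des as the gene that departed most from that order. Capitals mark the match.
Abcc9 (chr6:142702255-142702524, minus strand): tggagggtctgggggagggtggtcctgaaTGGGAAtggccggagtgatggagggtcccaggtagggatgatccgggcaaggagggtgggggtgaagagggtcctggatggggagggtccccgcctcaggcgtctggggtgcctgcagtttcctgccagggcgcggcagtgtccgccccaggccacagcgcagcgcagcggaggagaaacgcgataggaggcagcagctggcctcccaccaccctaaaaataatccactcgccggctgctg
Kcnj8 (chr6:142571595-142571864, minus strand): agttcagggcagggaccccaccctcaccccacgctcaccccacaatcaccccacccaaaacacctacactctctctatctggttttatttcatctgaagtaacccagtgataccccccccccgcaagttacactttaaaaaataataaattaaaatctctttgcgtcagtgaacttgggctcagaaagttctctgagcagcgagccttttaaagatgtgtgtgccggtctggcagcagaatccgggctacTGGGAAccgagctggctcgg
Smtn (chr11:3539273-3539542, minus strand): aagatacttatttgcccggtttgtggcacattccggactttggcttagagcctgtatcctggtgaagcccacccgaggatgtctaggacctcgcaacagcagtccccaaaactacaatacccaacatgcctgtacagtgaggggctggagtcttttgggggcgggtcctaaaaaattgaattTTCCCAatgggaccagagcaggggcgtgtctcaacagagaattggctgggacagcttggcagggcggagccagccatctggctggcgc
Rgs5 (chr1:169655251-169655520, plus strand): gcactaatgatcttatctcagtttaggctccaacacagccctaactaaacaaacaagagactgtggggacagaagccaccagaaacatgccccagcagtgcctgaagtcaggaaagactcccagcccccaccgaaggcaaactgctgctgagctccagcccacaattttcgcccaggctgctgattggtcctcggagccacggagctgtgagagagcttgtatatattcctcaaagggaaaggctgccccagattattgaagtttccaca
Des (chr1:75360042-75360311, plus strand): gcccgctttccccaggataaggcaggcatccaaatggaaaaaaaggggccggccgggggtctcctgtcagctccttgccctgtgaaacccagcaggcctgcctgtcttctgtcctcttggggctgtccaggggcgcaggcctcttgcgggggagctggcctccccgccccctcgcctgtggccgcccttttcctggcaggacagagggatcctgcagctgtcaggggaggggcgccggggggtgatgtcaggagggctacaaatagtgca
The match lay 221 bases before the start in Abcc9, at the start itself in Kcnj8 and 68 bases before it in Smtn. Abcc9 and Kcnj8 held the match with the same order of samples, and Smtn held it with another order. Rgs5, Mcam and Lmod1 had the order of Abcc9 and Kcnj8 without it. A match is a description of letters, not a site of binding, and windows without one say nothing of the factor.

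Compared across samples, 9 of the 10 genes were highest in sample 2, where 32.5% of the 13631 genes above background on at least 1 array were highest. Of the 10, 7 were lowest in sample 3, against 33.3% of those genes, and the same 7 combined both, against 18.0%. The 3 exceptions were Cspg4, Smtn and Des, all lowest in sample 1. All 10 genes were higher in sample 2 than in sample 1, by 0.42 to 0.93 on the log2 scale with a median of 0.71, while 50.7% of all genes were. Genes that the same cells may express are not independent of each other, and with 1 group of 3 samples no test of this order could be made. Myocd entered these counts through sample 2, the only array on which it passed background. Among the 8 genes above background on every array, 7 peaked in sample 2 and 5 had their lowest level in sample 3. The same 5 combined both. For these 8 genes sample 2 lay above sample 1 by 0.42 (Lmod1) to 0.86 (Cspg4) on the log2 scale. The matching shares of all genes above background on every array were not computed.

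The range over the 3 samples was 0.95 (log2) at the median of the 10 genes, or 1.94-fold, and 0.31 at the median of all 13631 genes. It exceeded 1, a 2-fold span, for 5 of the 10 genes (Rgs5, Mcam, Abcc9, Higd1b and Myocd), against 5.70% of all genes. This count was 5 without sample 1 and 0 without sample 2 or without sample 3, and 3 of the 8 genes above background on every array had such a range. The median of the 10 genes' differences from their own means was -0.14, 0.52 and -0.43 in samples 1 to 3, against -0.01, 0.00 and 0.00 for all genes. Over the 8 genes above background on every array it was -0.17, 0.46 and -0.38. The median of the 10 genes depended on the samples kept, because each gene's mean was then taken over those left. Without sample 2 it was 0.16 in sample 1 and -0.16 in sample 3. Without sample 3 it was -0.35 in sample 1 and 0.35 in sample 2. Without sample 1 it was 0.48 in sample 2 and -0.48 in sample 3. With 2 samples left, a gene's differences are equal and opposite by construction.

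**Figure D2:**
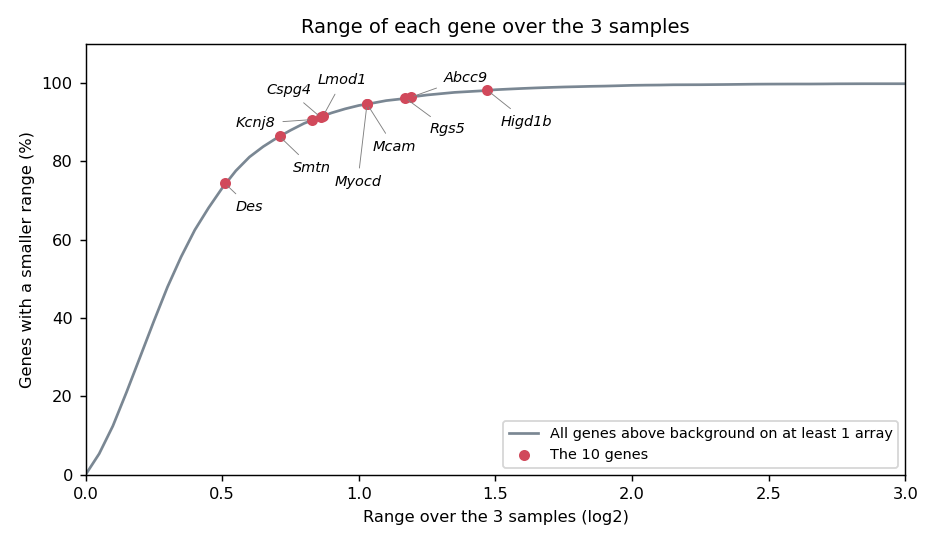
Range of a gene over the 3 samples (x axis, log2) against the share of the 13631 genes above background on at least 1 array that have a smaller range (y axis, percent), with the 10 genes as points. They lie between 74.4% (Des) and 98.2% (Higd1b) of all genes.

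The other genes of the vessel wall were then set beside them. Of the 15 other pericyte genes 14 peaked in sample 2, and sample 3 held the lowest level of 12, with medians of -0.07, 0.37 and -0.31 in samples 1 to 3. Pdgfrb stood at 8.87, 9.67 and 8.70 and Vtn, the matrix protein vitronectin, at 7.40, 8.22 and 6.93. Notch3, the receptor that keeps mural cells mature, and the peptidase gene Anpep had narrower ranges, 0.52 and 0.54 on the log2 scale. Sample 2 held the highest level of all 13 measured contractile genes and sample 3 the lowest level of 12, with medians of 0.00, 0.59 and -0.61. The smooth muscle myosin heavy chain Myh11 was at 8.81, 10.02 and 7.90, a 4.36-fold span, calponin (Cnn1) at 8.15, 8.92 and 7.16, and smooth muscle actin (Acta2) at 10.54, 11.18 and 10.03. Tagln, the actin-bundling protein SM22, was at 9.19, 9.87 and 8.37.

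Among genes that set vessel tone, 10 of 10 measured were highest in sample 2, against 32.5% of all 13631 genes. Of the 10, 6 were lowest in sample 3, against 33.3%. Both subunits of the nitric oxide receptor, Gucy1a1 (7.40, 8.45 and 7.27) and Gucy1b1 (7.03, 8.11 and 6.51), were more than 1 above sample 1 in sample 2 on the log2 scale. The endothelin receptor gene Ednrb stood at 8.04, 8.67 and 6.68 and the angiotensin receptor gene Agtr1a at 6.07, 6.20 and 5.79. The DNA-binding partner of myocardin and its related coactivators had another order. Srf, which encodes serum response factor, was at 7.94, 8.03 and 8.25, Mrtfa at 7.63, 7.76 and 8.08 and Mrtfb at 7.26, 7.56 and 7.58, all highest in sample 3 and lowest in sample 1. Their ranges were small, 0.31, 0.45 and 0.32 (log2), against 0.31 at the median of all genes. Samples 2 and 3 lay 0.02 apart for Mrtfb. Elk1, which competes with myocardin for serum response factor, had a range of 0.04. None of the 10 genes of this list of partners and repressors had a range above 1, against 5.70% of all genes. Of the list, 4 were highest in sample 2, against 32.5% of all genes.

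**Figure D3:**
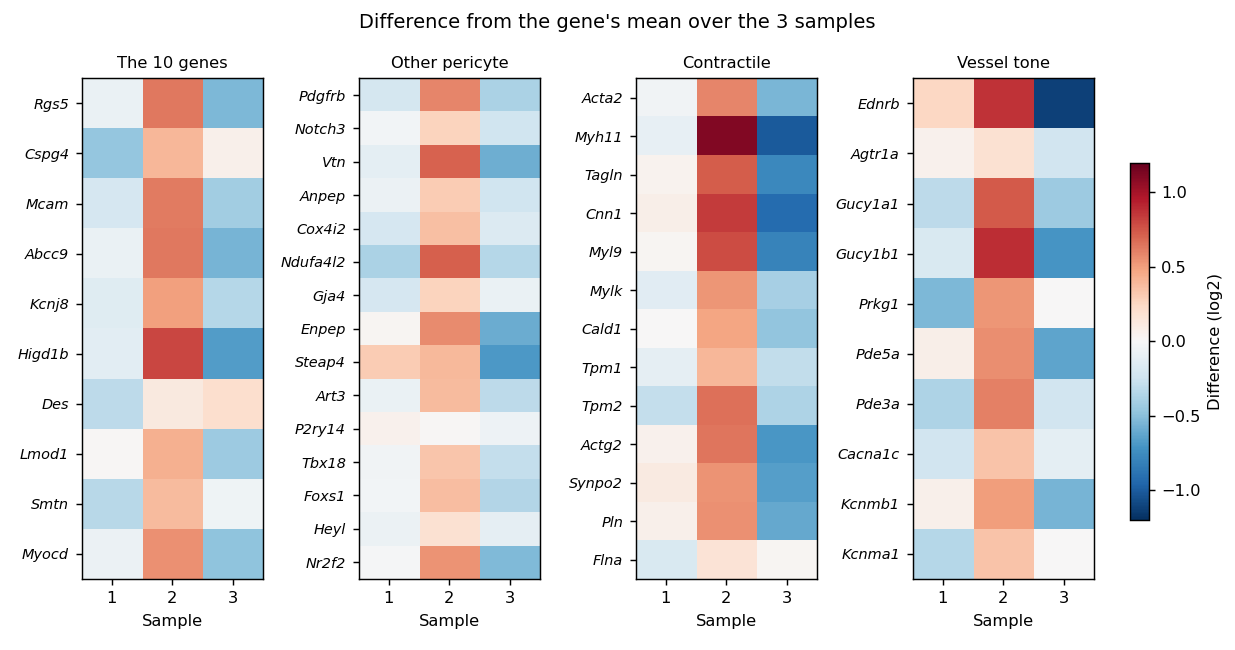
Difference of each gene from its own mean over the 3 samples (colour, log2) for the 10 genes and for the lists of other pericyte, contractile and vessel tone genes, with samples 1, 2 and 3 as columns. Sample 2 is the reddest column in every panel, with Des and P2ry14 as the genes that were highest elsewhere.

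Close relatives of the 10 genes did not share one order. Of 13 paralogues above background on at least 1 array, 6 were highest in sample 2, 4 in sample 3 and 3 in sample 1. Their median range was 0.29 (log2). Among all 13631 genes above background on at least 1 array, 4429 were highest in sample 2, 4466 in sample 3 and 3932 in sample 1. The median range of all those genes was 0.31, so the mix among paralogues is not read as particular to them. Rgs4, a regulator also known from pericytes, was at 6.97, 7.55 and 6.19 and Bcam, an adhesion molecule of the same superfamily as Mcam, at 6.97, 7.73 and 6.48, both in the order of Rgs5 and Mcam. Rgs2 and Rgs16 were highest in sample 3, at 10.80 and 8.85, as was Alcam at 8.17. The leiomodin relatives Lmod2 and Tmod1 spanned 0.29 and 0.24 (log2), and Lmod3, the leiomodin of skeletal muscle, was above background on no array. Smtnl1 and Smtnl2 spanned 0.53 and 0.23, and vimentin (Vim), an intermediate filament protein like desmin, 0.29.

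Markers of cells that share some of the 10 genes were read beside them. Of 14 skeletal muscle markers above background on at least 1 array, 10 were highest in sample 3, or 8 of the 12 above background on every array. Of all 13631 genes above background on at least 1 array, 4466 were highest in sample 3, and so was Des. The medians of the 14 genes were -0.18, -0.25 and 0.58. Their summed linear intensity, the sum over all measured genes of the list after taking values off the log2 scale, was 1576, 1445 and 2630. The factors Myod1 (6.42, 6.30 and 6.42), Myog (7.37, 6.95 and 7.37) and Myf5 (7.21, 6.87 and 7.18) were above background and lowest in sample 2, and Myf6 was above background on no array. The part of skeletal muscle RNA in the level of Des was not tested.

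Endothelial markers, read beside Mcam, were highest in sample 3 for 13 of 15 genes, or 8 of the 10 above background on every array. Of all 13631 genes above background on at least 1 array, 4466 were highest there. Emcn and Cldn5 passed background in sample 3 alone, and Robo4, highest in sample 3 at 5.18, passed in sample 1 alone. These genes enter the 13 and the medians. The medians were -0.18, -0.18 and 0.45 and the summed linear intensities 921, 876 and 1473. Pecam1, Cdh5 and Kdr were highest in sample 3, where Mcam was lowest, and Tek was highest in sample 2 at 5.93. For Cspg4, the pigment genes Tyr, Dct, Mlana, Tyrp1 and Slc45a2 and the oligodendrocyte genes Olig1 and Olig2 were above background on no array. Of 8 melanocyte markers, Mitf and Pmel passed on every array and Oca2 in sample 3 alone. The summed linear intensities of the 8 were 389, 386 and 376. The glial factor Sox10 was above background on every array, at 5.88, 6.12 and 5.94, as were Erbb3, Foxd3, Ngfr, S100b and Mbp. Cdh19 passed in sample 2 alone. In all, 6 of 10 Schwann and oligodendrocyte markers passed on every array, where 60.5% of all named genes did, with summed linear intensities of 711, 837 and 778. For Myocd, which heart muscle also expresses, 4 of 10 heart muscle markers passed on every array, below that share. Their list had summed linear intensities of 371, 371 and 440. Myh6, Ryr2, Myl7, Actn2 and Hcn4 were above background on no array. Nppa, Tnni3, Nkx2-5 and Myl4 were above it on all, and Sln in sample 3 alone. The part of these cell types in the levels of Mcam, Cspg4 and Myocd was not tested.

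Fibroblast markers had nearly the same order as the 10 genes. Of the 14 measured, 11 peaked in sample 2, against 32.5% of all 13631 genes above background on at least 1 array. Sample 3 held the lowest level of 13, against 33.3%. The medians of the fibroblast markers were 0.08, 0.41 and -0.51 in samples 1 to 3. Their summed linear intensities were 14964, 20121 and 10061. The median of the 10 genes minus that of the fibroblast markers was -0.22, 0.11 and 0.08. The share of the samples' makeup in both patterns was not tested. Pdgfra was at 8.55, 9.24 and 7.82, and Dcn, Lum and Col1a1 followed the same order. Of the 10 leukocyte markers 4 were highest in sample 1, 2 in sample 2 and 4 in sample 3, and 5 were lowest in sample 2. Among all 13631 genes, 3932, 4429 and 4466 were highest in samples 1, 2 and 3, and 4000 were lowest in sample 2. The medians of the leukocyte markers were 0.04, -0.16 and 0.15 and their summed linear intensities 16253, 14423 and 16039. Ptprc, the CD45 antigen of all leukocytes, was at 11.19, 10.57 and 11.05, while the macrophage markers Cd68 (range 0.09, log2) and Csf1r (0.55) peaked in sample 2 and Itgam (0.56) in sample 3. The lymphocyte markers had wider ranges than any of the 10 genes. The T cell receptor subunit Cd3e was at 8.59, 6.49 and 8.04, a 4.31-fold span, and the B cell marker Ms4a1 at 9.05, 6.34 and 6.45, a 6.55-fold span, both lowest in sample 2.

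**Figure D4:**
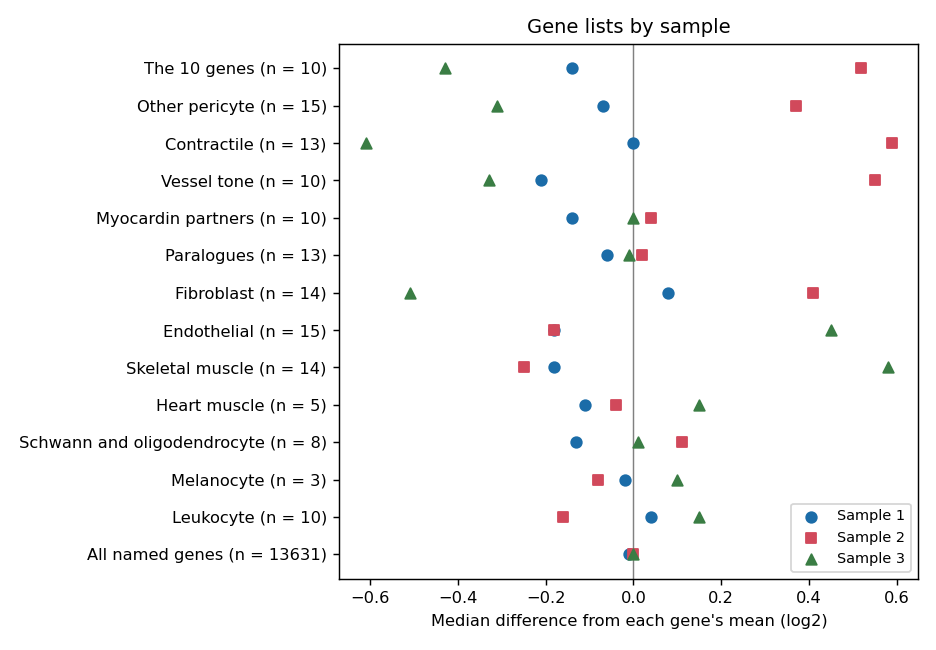
Median over the genes of each list of the difference from the gene's own mean (x axis, log2) in samples 1, 2 and 3, with the number of genes above background on at least 1 array in brackets. The 10 genes and the pericyte, contractile, vessel tone and fibroblast lists have sample 2 at the right and sample 3 at the left, while the endothelial and skeletal muscle lists have sample 3 at the right.

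The genes whose pattern over the 3 samples lay closest to the median pattern of the 10 genes were Mylk, the kinase that starts smooth muscle contraction, Epyc, a small matrix proteoglycan, Plat, which encodes tissue plasminogen activator, Nckap1 and Arhgap29, at Euclidean distances of 0.035 to 0.042 (log2) over 3 samples. Among the 8 genes above background on every array the distance was smallest for Kcnj8, 0.09, and largest for Des, 0.77, and Cspg4, 0.60. Distances of Higd1b and Myocd rest on values below background and are not ranked. Of 12490 other genes above background on all arrays, 165 (1.32%) lay within 0.18, the median distance of the 10 genes. A likeness over 3 samples, shared with so many genes, says nothing of function or control.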

How the data were processed

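The authors deposited log2 intensities, 1 value for each of 31873 probe sets and 3 arrays. Partek was among the tools, per the submitters' processing notes, and how the values were background-corrected, normalized and summarized is not given in the sources used here. Values ran from 2.00 to 13.18, from which the log2 scale was taken. Equal values on at least 2 arrays occurred in 4938 probe sets (15.5%) but in none of the 10 genes. Depth does not apply to arrays, and their number limits the precision.

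GEO's platform annotation paired 23094 probe sets with 1 symbol and 1764 with several, and left 7015 without one here. Of the first, 22923 matched the RefSeq gene table of GRCm38.p6 and none needed another symbol. Summaries were computed in Python 3.11.15 with pandas 2.3.3 and numpy 2.4.6, and the profile functions were tested on simulated data. With 1 group, no test between groups was made.

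The members, lists and alternatives were chosen with earlier results of these data known. The 12 further lists named 154 genes; 145 had a probe set of their own symbol and the other 9 were not analysed here. Genes named are the 10 members, the first 4 measured genes of each list, all paralogues and the 5 genes closest in pattern. Other genes named (Xist, Tbx18, P2ry14, Emcn, Cldn5, Robo4, Mlana, Tyrp1, Slc45a2, Oca2, Cd3e, Ms4a1, Ngfr, S100b, Mbp, Olig1, Olig2, Nkx2-5, Myl4, Myl7, Actn2, Hcn4 and Sln) were chosen after their values were seen. Alternatives changed the background level, the scaling, the summary of probe sets and the thresholds, and left out each sample.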

Additional observations from a re-analysis of the deposited data

How the results depend on the processing

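No paired analysis was possible because there was 1 group. The count of genes with a range above 1 on the log2 scale depended on the threshold and the samples: it was 5 as reported, 10 with a range above 0.5, 0 with a range above 1.5, 0 to 5 when 1 sample was left out, and 3 when only the 8 genes above background on every array were counted, an alternative chosen after seeing the data. A range over fewer samples is smaller by construction. The number of genes above background on every array was 8 as reported, 10 with the 90th percentile of the receptor probe sets and 7 with the 99th. With 1 sample left out, 8 to 9 genes were above background on every remaining array. Then 9 to 10 were highest in sample 2 and 7 to 9 lowest in sample 3. By construction these counts can only stay or rise when a sample is left out, so they do not measure how firm the pattern is. With 1 sample left out, the median difference from the gene's mean ran from -0.35 to 0.16 in sample 1. It ran from 0.35 to 0.48 in sample 2 and from -0.48 to -0.16 in sample 3. Differences over 2 samples are equal and opposite by construction. Averaging both Smtn probe sets gave a level of 6.59 in place of 7.81. Of 128 values recomputed in all, 122 stayed within 1 SD between samples or, for counts, within 1.5 times the reported count. For the median differences this was the SD of the 3 sample medians, 0.49, so the change of sign in sample 1 counted as staying. Levels of single genes made up 70 of the 128, and many alternatives could hardly change them. The count of 122 is thus no measure of how firm the pattern is. Levels of Higd1b and Myocd near the background are the least certain of the 10.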
